A study of Mus musculus with 12 samples.

Results

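Ogdhl and Tnfrsf25 are 2 of the 12591 genes listed in a transcriptome of mouse embryonic fibroblasts, and they were chosen by their deposited levels, because their mRNA was lower under DZ (deazaneplanocin A, an inhibitor of the methyl cycle enzyme AHCY) while it was not lower under adenine or SAM (S-adenosylmethionine). Since the values of the CTL, DZ, adenine and SAM dishes selected both genes, their levels and fold changes are given as a description with no test. The fibroblasts carried the PER2::LUC knock-in, a luciferase fusion of the clock protein PER2. There were 3 dishes with DZ at 10 μM, 3 with adenine at 1 mM, 3 with SAM at 1 mM and 3 CTL dishes, and the exposure lasted 24 h. All 4 groups, CTL included, contained 3.3 mM HCl. The dishes were replicates of a single cell population, so their spread measures variation between dishes and not between animals.

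Ogdhl encodes a mitochondrial enzyme closely related to OGDH, the thiamine diphosphate-dependent E1 component of the 2-oxoglutarate dehydrogenase complex, which converts 2-oxoglutarate to succinyl-CoA in the tricarboxylic acid (TCA) cycle together with the E2 component DLST and the E3 component DLD. OGDHL is best known from brain, where it can stand in for OGDH as E1. Tnfrsf25 encodes death receptor 3, a member of the TNF receptor superfamily with a cytoplasmic death domain, best known from T cells, whose ligand is TL1A (encoded by Tnfsf15) and which passes its signal on through TRADD to TRAF2 and NF-kappaB or to FADD and caspase 8.

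Levels are given as log2 CPM (the log2 of a gene's reads scaled to the normalized library size, as deposited) and, where 2 genes are compared, as CPM per kb of the canonical transcript. The libraries held between 45649534 and 56789090 reads on listed genes. Of 12 fibroblast markers, 9 were listed (Dcn, Lum and Fap were not). Their summed level was 21900 to 22300 CPM in CTL, 27700 to 28300 in DZ, 24300 to 26600 in adenine and 15900 to 17300 in SAM. Of 16 markers of T cells and other leukocytes only Cd68 was listed, between 2.70 and 3.96 CPM in CTL and DZ and between 10.8 and 17.6 CPM in adenine and SAM, and of 12 neuron markers none was listed. A gene had to reach 1 CPM in all samples to be listed, so the unlisted markers were below that level in at least one library.

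Ogdhl (ENSMUSG00000021913) lies on the plus strand at chr14:32043735-32071368 of GRCm39, with 29 annotated transcripts and a canonical one of 5026 bases. Tnfrsf25 (ENSMUSG00000024793) lies on the plus strand at chr4:152200391-152205299, with 4 annotated transcripts and a canonical one of 2384 bases. To show what stands at the starts of 2 genes with a similar profile, their RefSeq promoter windows, which were found letter for letter in GRCm39, were searched on both strands for 5 motifs, the E-box CACGTG, the GC box GGGCGG, the TATA box TATAAA, the CCAAT box CCAAT and the cAMP response element TGACGTCA. The 250 bases before the Tnfrsf25 start, chr4:152200141-152200390, held no match to any of the 5 motifs and read as follows.
Tnfrsf25, before the start: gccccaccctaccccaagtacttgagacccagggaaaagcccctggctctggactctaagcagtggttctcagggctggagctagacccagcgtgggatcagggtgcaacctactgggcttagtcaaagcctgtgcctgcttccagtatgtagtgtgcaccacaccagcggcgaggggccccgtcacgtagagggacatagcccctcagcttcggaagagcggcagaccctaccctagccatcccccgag

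The 250 bases before the RefSeq start of Ogdhl, chr14:32043726-32043975, held 1 match, a GC box. That start, at 32043976, is not the start of the canonical transcript. The annotated gene begins at 32043735, so most of these 250 bases lie inside it and overlap annotated exons. When the search was widened to 50 bases after the start, a choice made after the letters at the Ogdhl start had been seen, Ogdhl had 2 matches and Tnfrsf25 had 2. The stretches of 30 bases around these matches are shown because they are the only matches near the RefSeq starts, with the matched letters in capitals. They lie at chr14:32043891-32043920, chr14:32043959-32043988 and chr4:152200404-152200433. In this order they overlap 3, 26 and 1 annotated exon records of the gene, and no coding sequence.
Ogdhl, GC box: gggccgcagacaGGGCGGggcgtctaccga
Ogdhl, E-box: cggcggccgtgtCACGTGacctaggtaatt
Tnfrsf25, 2 overlapping GC boxes: gatggcgcggGGGCGGGCGGgcaggcaggc

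The E-box began 5 bases before the Ogdhl start at 32043976 and ran across it. Over all 32851 windows of the RefSeq promoter table an E-box stood in 6.02% of the 250-base windows and in 7.15% of the 300-base windows, and a GC box in 32.7% and 35.7%. Over the 11287 windows of genes listed in these data, to which both genes belong, the E-box share was 8.47% and 10.1%. The GC box share was 59.3% and 64.4%, so that most of these windows held a GC box. In the 300-base windows the TATA box stood in 13.6% of all and 6.88% of listed genes' windows, the CCAAT box in 37.4% and 38.2%, and the cAMP response element in 1.79% and 3.03%. A second RefSeq start of Tnfrsf25, at 152200800, had no match in either window. These matches describe letters and not binding, and the GC box was found in the 300-base windows of both genes and in the 250-base window of Ogdhl alone.

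Ogdhl mRNA was low in the DZ dishes and alike in the other groups. Its level was 3.91, 3.8 and 3.95 log2 CPM in the 3 CTL dishes and 2.48, 2.23 and 2.26 in the DZ dishes. It was 3.77, 3.72 and 4.02 log2 CPM under adenine and 4.0, 3.86 and 4.01 under SAM. All 3 DZ dishes lay below every other dish, with a gap of 1.31 on the log2 scale between the highest DZ dish and the lowest CTL dish, whereas the adenine and SAM dishes overlapped CTL. Of all genes, 33.6% were lower in every DZ dish than in every CTL dish, 38.7% lower than in every adenine dish and 37.8% lower than in every SAM dish, and since these contrasts chose Ogdhl nothing is read from that. These levels rested on 662 to 704 reads in CTL, 224 to 274 in DZ, 729 to 799 in adenine and 805 to 947 in SAM. On the CPM scale the mean was 14.7 ± 0.811 in CTL, 4.98 ± 0.494 in DZ, 14.3 ± 1.62 in adenine and 15.5 ± 0.879 in SAM (SD, n = 3 each). The DZ mean was thus 33.8% of the CTL mean, while the adenine and SAM means were 96.8% and 105% of it.

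Against CTL, the log2 fold change of Ogdhl was -1.56 with DZ, -0.05 with adenine and 0.07 with SAM, and each had a standard error of 0.091. The sign of the adenine and SAM values was not stable, as plain read totals gave 0.01 for adenine and quantile normalization gave -0.03 for SAM. Against the other treated dishes directly, the level under DZ was lower by a log2 difference of -1.51 from adenine and -1.63 from SAM. All 3 comparisons with CTL share the same CTL dishes.

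Tnfrsf25 mRNA was low under DZ and stood above CTL under adenine and SAM. Its level was 3.68, 3.66 and 3.62 log2 CPM in CTL and 2.45, 1.78 and 2.01 in DZ. It was 4.51, 4.31 and 4.34 log2 CPM under adenine and 3.84, 4.0 and 4.02 under SAM. None of the treated groups overlapped CTL, with log2 gaps of 1.17 (DZ), 0.63 (adenine) and 0.16 (SAM). Of all genes, 37.0% were higher in every adenine dish than in every CTL dish and 37.6% higher in every SAM dish, beside the 33.6% that were lower in every DZ dish. The reads numbered 560 to 603 in CTL, 167 to 268 in DZ, 1003 to 1240 in adenine and 811 to 907 in SAM. On the CPM scale the mean was 12.5 ± 0.257 in CTL, 4.27 ± 1.05 in DZ, 21.0 ± 1.62 in adenine and 15.5 ± 1.06 in SAM (SD, n = 3 each). Relative to the CTL mean these were 34.0% for DZ, 167% for adenine and 123% for SAM.

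Against CTL, the log2 fold change of Tnfrsf25 was -1.57 with DZ, 0.74 with adenine and 0.30 with SAM, and each had a standard error of 0.125. The direct log2 difference was -2.31 from adenine and -1.87 from SAM, larger than the difference from CTL because both treated means lay above CTL. Among the DZ dishes, replicate 1 was the highest and replicate 2 the lowest of the 3, and the DZ value was -1.76 without replicate 1 and -1.42 without replicate 2. In bulk RNA, fewer cells expressing a gene and less of its mRNA per cell cannot be told apart, which applies to both genes.

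**Figure D1:**
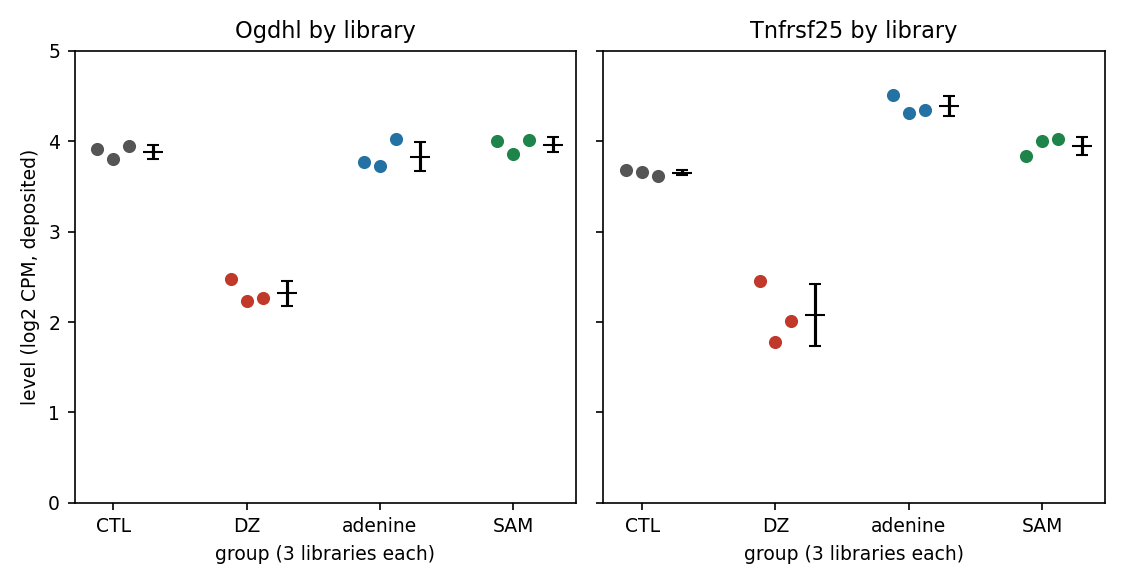
Deposited level (log2 CPM) of Ogdhl on the left and Tnfrsf25 on the right in each library (points) of CTL, DZ, adenine and SAM, with the mean and SD of each group (n = 3) drawn beside the points. The 3 DZ points of each gene sit below all 9 others, between 2.23 and 2.48 for Ogdhl and between 1.78 and 2.45 for Tnfrsf25, and the adenine and SAM points of Tnfrsf25 sit above CTL.

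Both genes had about the same level in log2 CPM, which does not allow for transcript length, and about the same DZ log2 fold change. Per kb of transcript Tnfrsf25 was the higher in every group, at 5.26 against 2.93 CPM per kb in CTL and 1.79 against 0.992 in DZ. Averaged over the 12 libraries, Ogdhl was at 3.50 and Tnfrsf25 at 3.52 log2 CPM, above 24.0% and 24.2% of all listed genes. The residual SD pooled over the 4 groups was 0.12 for Ogdhl and 0.19 for Tnfrsf25 on the log2 scale, where the median was 0.10 over the genes within 0.5 log2 units of either level (1581 and 1590 genes). By group the order was not the same throughout, as the SD of the log2 CPM was larger for Tnfrsf25 in DZ (0.343 against 0.138 for Ogdhl) and in SAM, and smaller in CTL (0.0296 against 0.0801) and adenine (0.109 against 0.160). The same DZ dish, replicate 1, was the highest for both genes, 0.16 above the group mean for Ogdhl and 0.37 above it for Tnfrsf25. In adenine the dishes did not deviate together, as the highest was replicate 3 for Ogdhl and replicate 1 for Tnfrsf25.

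Among all 12591 genes Tnfrsf25 had the fifth lowest and Ogdhl the seventh lowest log2 fold change of DZ minus CTL. Of the other 8 genes in the lowest 10, which were Gm12454, Niban3, Cp, Slc16a4, Slc25a23, Tincr, Nnt and Whrn, all but Nnt were also lower than CTL in the other treated groups at the threshold used for calls (limma with Benjamini-Hochberg adjustment over all genes, FDR below 0.01). The adenine values of these 7 genes ran from -1.78 to -0.65 on the log2 scale and the SAM values from -1.98 to -0.99. Gm12454 had the lowest value of all, at -1.94 with DZ, next to -0.76 with adenine and -1.28 with SAM. Nnt, a mitochondrial transhydrogenase, was not called in any of the comparisons with CTL, with a DZ level of 2.75 ± 1.63 log2 CPM (SD, n = 3) that spread across its CTL level of 4.26 ± 0.25.

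Called lower in DZ minus CTL, with no call for lower in adenine or SAM, were 1135 genes (9.01% of all), where 23.4% of all genes were called lower in DZ minus CTL, 31.0% in adenine minus CTL and 35.7% in SAM minus CTL. With the DZ log2 fold change also at or below -0.5 there were 239 such genes (1.90%), and at or below -1 there were 28 (0.222%). Ogdhl and Tnfrsf25 are among these because this pattern chose them, and nothing is read from their place in the counts. They had the lowest DZ values of the pattern, and the next 3 genes stood just above them. Siae, a sialic acid acetylesterase, had -1.45 for DZ with 0.53 for adenine and 0.70 for SAM. Rdm1, which encodes an RNA recognition motif protein, had -1.43, 1.43 and 2.31 in the same order. Rhbdl3, a rhomboid-like protein, had -1.42, 0.04 and -0.06.

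**Figure D2:**
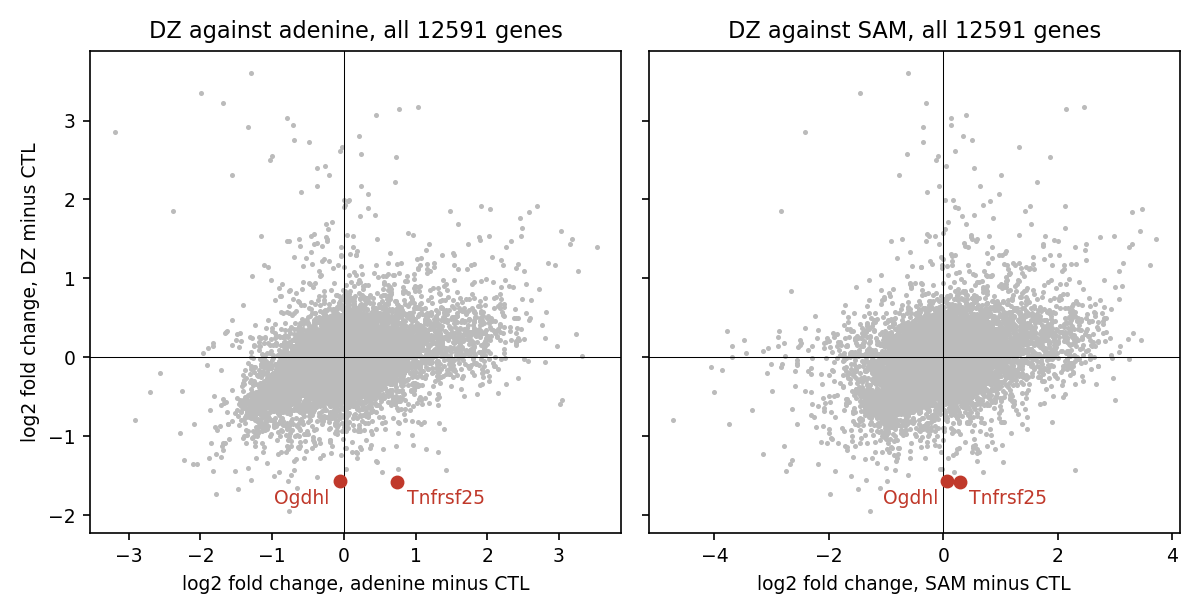
Log2 fold change of DZ minus CTL (vertical axis) against that of adenine minus CTL (left) and SAM minus CTL (right) for all 12591 genes (grey points), with Ogdhl and Tnfrsf25 in red. The axes share the CTL dishes. Ogdhl stands near 0 on both horizontal axes, at -0.05 and 0.07, and Tnfrsf25 to the right of 0, at 0.74 and 0.30, with both near -1.6 on the vertical axis.

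The profiles of Ogdhl and Tnfrsf25 over the 12 libraries had a Pearson r of 0.929, which ranked Tnfrsf25 as the 78th most similar gene to Ogdhl and Ogdhl as the 118th most similar to Tnfrsf25 among 12590 others. The 12 points share 4 groups and the scaling of each library, so that any gene low only in the 3 DZ libraries scores high. The genes most like Ogdhl were Smarcd3 (r of 0.985), which encodes a subunit of the BAF chromatin remodelling complexes, Samd1 (0.984), Hnrnph1 (0.983), Raly (0.983) and Angptl2 (0.982). Their DZ log2 fold changes against CTL were smaller than that of Ogdhl, between -0.83 for Angptl2 and -0.35 for Hnrnph1. Hnrnph1 and Raly encode RNA-binding proteins, and Angptl2 a secreted angiopoietin-like protein.

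Among the genes most like Tnfrsf25 were Cep68 (r of 0.987), Stim1 (0.981), Acot7 (0.978) and Lrsam1 (0.977). Stim1, the calcium sensor of the endoplasmic reticulum, had a log2 fold change of -0.23 with DZ, 0.11 with adenine and 0.03 with SAM. Lrsam1, a ubiquitin ligase, had -0.56, 0.31 and 0.05 in the same order. In these 4 genes the order of the groups, with DZ lowest and adenine highest, was that of Tnfrsf25, and the sizes were smaller.

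Ogdh, the E1 gene used by most tissues, was higher than CTL in all 3 treated groups. In CPM per kb, its level was 11.6, 11.8 and 10.8 in CTL and 13.5, 14.0 and 14.2 in DZ. It was 14.0, 14.0 and 13.7 under adenine and 20.0, 19.9 and 17.6 under SAM. Every treated dish lay above every CTL dish, as was so for 31.8% of all genes with DZ, 37.0% with adenine and 37.6% with SAM. The log2 fold change was 0.29 for DZ (SE 0.0471, adjusted p = 9.76e-05 by limma with Benjamini-Hochberg adjustment), 0.29 for adenine (adjusted p = 5.25e-05) and 0.75 for SAM (adjusted p = 7.30e-10). DZ and adenine did not differ past the threshold in Ogdh, with a log2 difference of -0.0005 ± 0.0471 (SE).

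On the same per-length scale Ogdhl was the minor E1 transcript in every group. Its level was 2.93 ± 0.161 CPM per kb in CTL and 0.992 ± 0.0982 in DZ (SD, n = 3 each). It was 2.84 ± 0.323 under adenine and 3.08 ± 0.175 under SAM. As a share of Ogdh and Ogdhl together, a measure chosen with both values known, Ogdhl made up 20.5 ± 1.55% in CTL, 6.67 ± 0.788% in DZ, 17.0 ± 1.78% in adenine and 13.9 ± 1.41% in SAM (SD, n = 3 each). The DZ dishes lay between 6.20% and 7.58%, below all others. The SAM dishes lay between 12.6% and 15.4%, below CTL at 19.0% to 22.1%, with Ogdh higher and the Ogdhl level itself overlapping CTL.

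**Figure D3:**
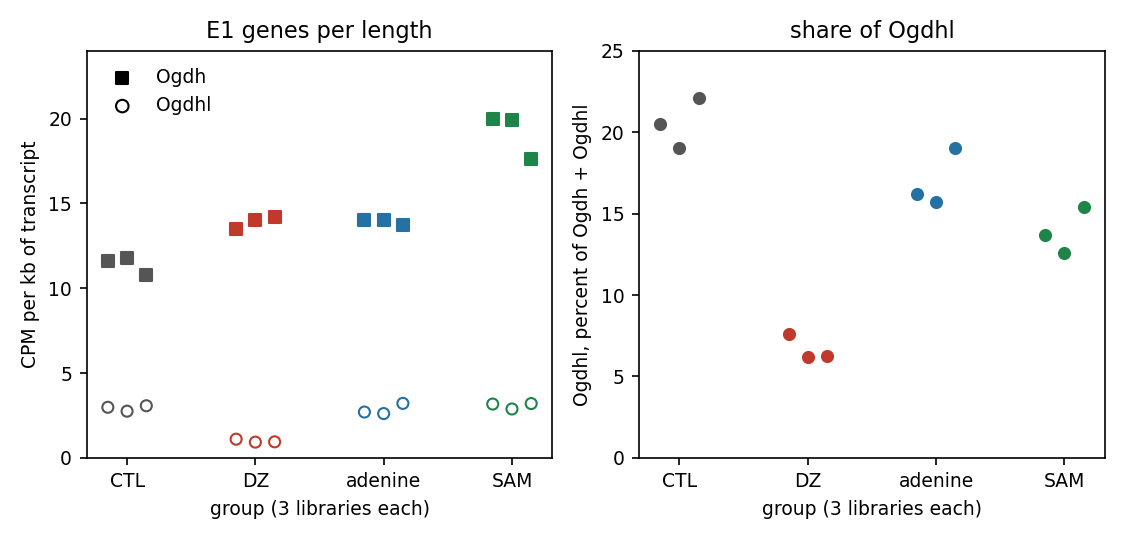
Left, CPM per kb of Ogdh (filled squares) and Ogdhl (open circles) in each library of CTL, DZ, adenine and SAM. Right, Ogdhl as a percent of the sum of both per-length levels in the same libraries. Ogdh is above Ogdhl in all 12 libraries, and the share of Ogdhl is lowest in DZ, from 6.20% to 7.58%.

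Of the other 5 genes of the 2-oxoglutarate dehydrogenase complex and its E1 relatives, Ogdh, Dlst and Dld rose under DZ, and Mrps36 and Dhtkd1 did not pass the test. In DZ minus CTL 3 of the 5 passed the limma threshold and all were higher, where 45.9% of all genes passed (22.6% higher), with a list median of 0.15 on the log2 scale against -0.01 over all genes. The log2 fold change was 0.26 for Dlst and 0.15 for Dld, and an unadjusted p below 0.05 was reached by 4 of the 5. In adenine minus CTL all 5 passed, 2 higher and 3 lower, where 61.6% of all genes passed (30.6% higher), with a median of -0.12. In SAM minus CTL 4 passed, 2 in each direction, where 69.3% of all genes passed (33.7% higher), with a median of 0.02.

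Dld, the E3 that this complex shares with the pyruvate and branched-chain complexes, differed in direction between treatments, at 0.15 with DZ, -0.58 with adenine and -0.51 with SAM (log2 fold changes), all past the threshold. Its direct difference between DZ and adenine was 0.74, and between DZ and SAM 0.66, both past the threshold. Dlst, the E2, had 0.26, -0.12 and 0.02 in the same order, the last not past the threshold, and its adenine value lost the call under 6 other settings or left-out libraries, among them without CTL replicate 1, CTL replicate 3 or adenine replicate 2 (-0.11 in each case). Mrps36, also called Kgd4, which anchors the E3 to the complex, had 0.10, not past the threshold, and 0.46 and 0.71. Dhtkd1, the E1 of the related 2-oxoadipate complex, had -0.26 (2.79 log2 CPM in CTL and 2.53 in DZ, adjusted p = 0.0735 by limma with Benjamini-Hochberg adjustment), which did not pass, and -0.46 and -1.0, which did. The adenine value of Dhtkd1 lost the call without CTL replicate 2 (-0.43), CTL replicate 3 (-0.40) or adenine replicate 2 (-0.44).

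Of 14 other enzymes of the TCA cycle, 7 (50%, against 45.9% of all genes) passed in DZ minus CTL, 1 higher and 6 lower, with a median log2 fold change of -0.07. Cs, citrate synthase, fell by 0.40 and Sdhb, a subunit of succinate dehydrogenase, fell by 0.26, and both were also lower under adenine (-0.28 and -0.26) and SAM (-0.37 and -0.21). Mdh2, the mitochondrial malate dehydrogenase, was the gene that rose, by 0.29. In adenine minus CTL 9 of the 14 (64.3%, against 61.6% of all genes) passed, all lower, with a median of -0.14, and in SAM minus CTL 7 (50%, against 69.3%) passed, 2 higher and 5 lower, with a median of -0.03. The 14 changes under DZ lay between -0.40 and 0.29.

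**Figure D4:**
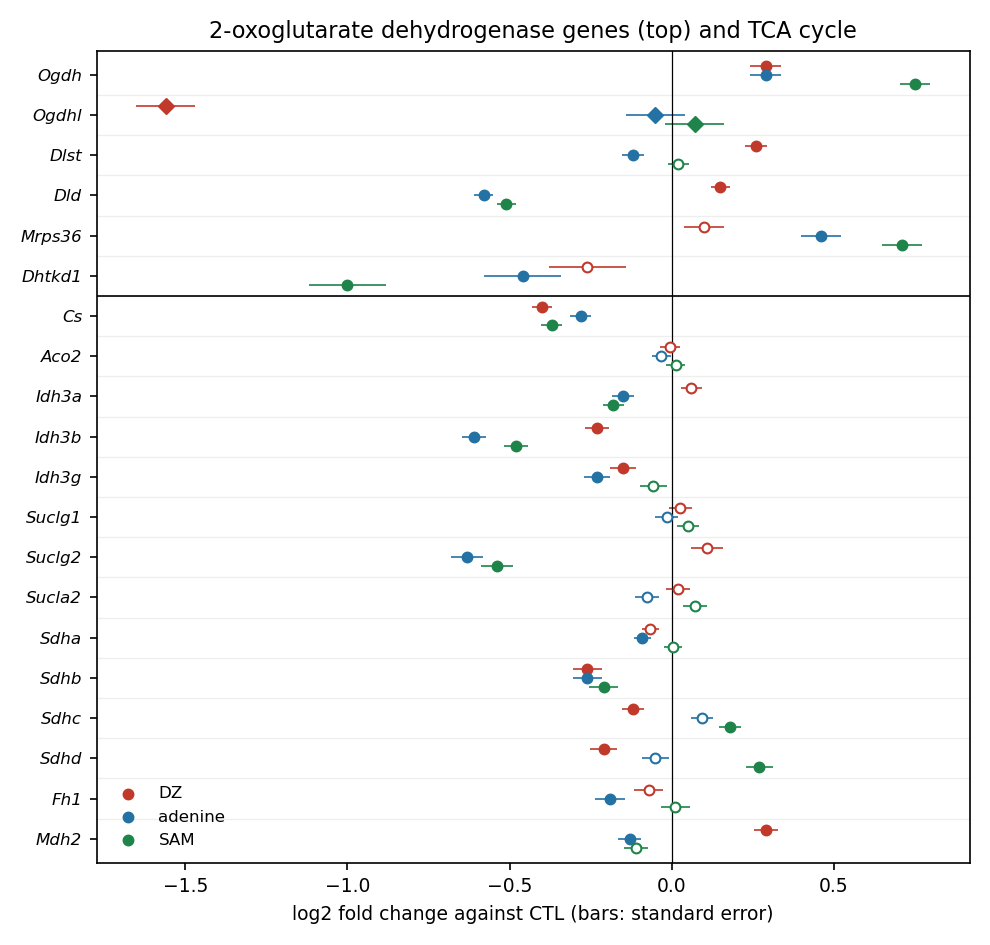
Log2 fold change against CTL (horizontal axis, bars are standard errors from the limma fit) of the 2-oxoglutarate dehydrogenase genes (top) and other TCA cycle enzymes (below) for DZ (red), adenine (blue) and SAM (green). Filled points passed an FDR of 0.01, open points did not, and diamonds mark Ogdhl, which has no test. The DZ point of Ogdhl is at -1.56, and the DZ points of the other genes stay between -0.40 and 0.29. Ogdhl was picked for its fall under DZ, so nothing is read from its place.

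In the sister complexes that oxidize pyruvate and branched-chain 2-oxo acids, and their kinases and phosphatases, 6 of 15 genes (40.0%, against 45.9% of all genes) passed in DZ minus CTL, 3 in each direction, with a median of -0.01. Pdha1, the pyruvate dehydrogenase E1 alpha subunit, fell in all 3 treated groups, by 0.40 with DZ, 0.42 with adenine and 0.48 with SAM. Bckdk, the kinase of the branched-chain complex, rose in all 3, by 0.45, 0.54 and 0.55 in the same order. With adenine 12 (80.0%, against 61.6% of all genes) passed, 6 in each direction, and in SAM minus CTL 13 (86.7%, against 69.3%) passed, 6 higher and 7 lower. Pdk4, a kinase that shuts off pyruvate dehydrogenase, rose by 2.81 with adenine and by 2.47 with SAM. It had -0.06 with DZ, which did not pass, and its direct differences of -2.87 (DZ minus adenine) and -2.53 (DZ minus SAM) passed, where 64.3% and 69.0% of all genes did.

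Of 14 genes that supply or use 2-oxoglutarate outside the cycle, 6 (42.9%, against 45.9% of all genes) passed in DZ minus CTL, 5 higher and 1 lower, with a median of 0.05. With adenine 10 (71.4%, against 61.6%) passed, 5 in each direction, and in SAM minus CTL 12 (85.7%, against 69.3%) passed, 5 higher and 7 lower. The alanine aminotransferase gene Gpt2 had 0.12 with DZ, -0.59 with adenine and -2.09 with SAM, and the aspartate aminotransferase gene Got1 had 0.16, -0.83 and -1.79, all past the threshold. The DZ call of Got1 was lost without CTL replicate 2 (0.12), CTL replicate 3 (0.16) or DZ replicate 2 (0.13). The cytosolic isocitrate dehydrogenase gene Idh1 fell by 0.24 under DZ and rose by 0.83 under adenine and 1.32 under SAM, but the DZ call was lost under 7 other settings or left-out libraries, among them without CTL replicate 1 (-0.255), CTL replicate 2 (-0.18), DZ replicate 2 (-0.22) or DZ replicate 3 (-0.20).

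Of the 4 listed genes for uptake and activation of thiamine, the E1 cofactor, only Thtpa, a thiamine triphosphatase, passed in DZ minus CTL, where it fell by 0.37 and 45.9% of all genes passed. With adenine 0 of the 4 passed in limma, where 61.6% of all genes did, and 0 with voom on recovered reads, and 1 had an unadjusted p below 0.05. In SAM minus CTL 2 of the 4 (50%, against 69.3% of all genes) passed, 1 in each direction.

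The gene of the ligand of death receptor 3, Tnfsf15 (TL1A), rose under DZ and fell under adenine and SAM. Its level was 3.02, 3.03 and 2.91 log2 CPM in CTL and 4.04, 3.71 and 3.87 in DZ. It was 2.40, 2.59 and 2.67 log2 CPM under adenine and 1.29, 1.56 and 1.51 under SAM. No treated group overlapped CTL, where 31.8% of all genes were higher in every DZ dish, 37.7% lower in every adenine dish and 40.0% lower in every SAM dish. The log2 fold change was 0.89 for DZ (SE 0.106, adjusted p = 4.76e-06 by limma with Benjamini-Hochberg adjustment), -0.43 for adenine (adjusted p = 0.00189) and -1.53 for SAM (adjusted p = 2.41e-09). The adenine value lost the call without adenine replicate 1, at -0.35 (adjusted p = 0.013 by limma with Benjamini-Hochberg adjustment). The direct differences were 1.32 for DZ minus adenine and 2.42 for DZ minus SAM, both past the threshold. The receptor gene Tnfrsf25, from the same dishes, had -1.57 (DZ), 0.74 (adenine) and 0.30 (SAM).

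Of 18 TNF superfamily ligand genes 5 were listed, and all 5 passed in DZ minus CTL, where 45.9% of all genes did, 2 higher and 3 lower, with a median of -0.48. In CTL, Tnfsf11 (RANKL, the osteoclast differentiation factor) was close to the 1 CPM needed for listing, with a mean of 0.19 log2 CPM. Besides Tnfsf15, Tnfsf11 rose in all 3 treated groups, by 0.76 with DZ, 2.09 with adenine and 2.54 with SAM. Eda (ectodysplasin) fell in all 3, by 0.59, 0.67 and 0.67 in the same order. Tnfsf12 (TWEAK) fell by 0.48 under DZ and rose by 0.43 under adenine and 0.76 under SAM. Tnfsf9 (the 4-1BB ligand) fell by 0.55 under DZ, had -0.05 under adenine, which did not pass, and rose by 0.61 under SAM. The Tnfsf9 call under DZ was lost without CTL replicate 1 (-0.46), CTL replicate 2 (-0.57) or DZ replicate 1 (-0.42). With adenine 4 of the 5 passed, 2 in each direction, and in SAM minus CTL all 5 passed, 3 higher and 2 lower, where 61.6% and 69.3% of all genes did.

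Of 28 receptors of the superfamily 15 were listed, and of the 14 besides Tnfrsf25, 7 (50%, against 45.9% of all genes) passed in DZ minus CTL, 6 higher and 1 lower (22.6% and 23.4% of all genes), with a median of 0.11. Fas, the death receptor for FasL, rose by 0.63, Tnfrsf21 (death receptor 6) by 0.54 and Tnfrsf10b (the TRAIL receptor) by 0.27. Tnfrsf1a (TNF receptor 1), the closest in signalling to death receptor 3, had 0.12, with the call lost without CTL replicate 2 (0.12), CTL replicate 3 (0.11) or DZ replicate 3 (0.09). The one receptor that fell was Tnfrsf1b (TNF receptor 2), by 0.14, and its call was lost without CTL replicate 1 (-0.14), CTL replicate 3 (-0.12), DZ replicate 1 (-0.12) or DZ replicate 2 (-0.13). Without CTL replicate 3 the number of receptors called was 4. The lowest DZ value among the 14 was -0.27, in Tnfrsf14, which did not pass.

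Under adenine 9 of the 14 receptors (64.3%, against 61.6% of all genes) passed, 4 higher and 5 lower, with a median of -0.09, and under SAM 11 (78.6%, against 69.3%) passed, 7 higher and 4 lower, with a median of 0.15. Tnfrsf9 (4-1BB) rose by 1.27 with adenine and by 1.50 with SAM, from a low CTL mean of 1.01 log2 CPM. Tnfrsf12a (the TWEAK receptor) rose by 0.40 under both. Fas had -0.09 for adenine and 0.13 for SAM, neither past the threshold, and its direct differences of 0.72 (DZ minus adenine) and 0.50 (DZ minus SAM) passed. Eda2r, a receptor for ectodysplasin, fell by 0.81 under adenine and 1.13 under SAM.

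Per kb of transcript, a ranking made with the values known, Tnfrsf25 was the 10th most abundant of the 15 listed receptors in CTL, at 5.26 ± 0.108 CPM per kb (SD, n = 3). In DZ it was the 12th at 1.79 ± 0.441, in adenine the 7th at 8.79 ± 0.68 and in SAM the 9th at 6.49 ± 0.443. Its neighbour above in CTL was Eda2r at 5.35 CPM per kb, within the spread of the dishes. The most abundant receptor in every group was Tnfrsf12a, from 134 in DZ to 182 in SAM.

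**Figure D5:**
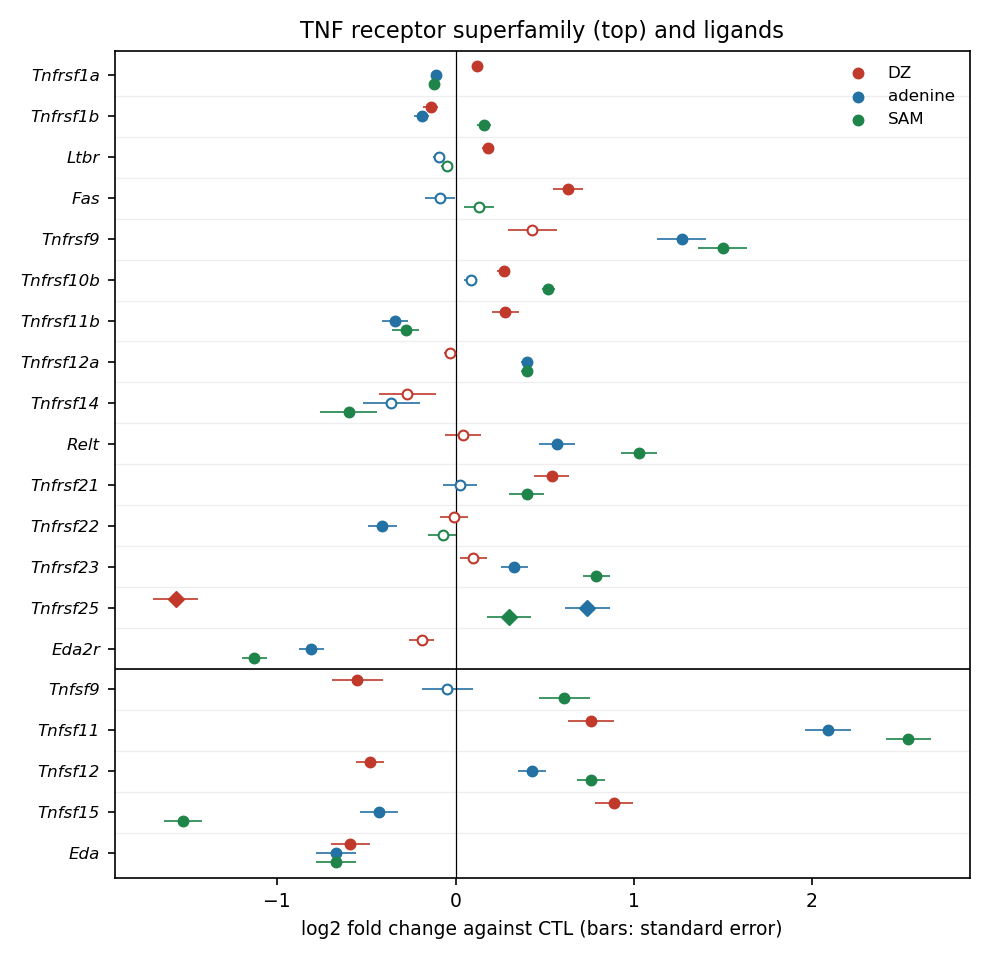
Log2 fold change against CTL (horizontal axis, bars are standard errors from the limma fit) of the 15 listed TNF receptor superfamily genes (top) and the 5 listed ligand genes (below) for DZ (red), adenine (blue) and SAM (green). Filled points passed an FDR of 0.01, open points did not, and diamonds mark Tnfrsf25, which has no test. Tnfrsf25, which was picked for its fall under DZ, has the lowest DZ point at -1.57, and nothing is read from that. Its ligand gene Tnfsf15 has DZ at 0.89 and SAM at -1.53.

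Of 28 listed adaptor, caspase and NF-kappaB genes that carry signals of the receptors, 14 (50%, against 45.9% of all genes) passed in DZ minus CTL, 11 higher and 3 lower, where 22.6% of all genes were higher and 23.4% lower. The list median was 0.06 against -0.01 over all genes, and 4 of the 14 had a change of 0.5 or more on the log2 scale. Tradd, the death domain adaptor, rose by 0.27 (4.36 ± 0.0987 log2 CPM in CTL and 4.63 ± 0.0501 in DZ, SD, n = 3 each), with the call lost without CTL replicate 2 (0.21) or DZ replicate 2 (0.24). Fadd, which links death domains to caspase 8, rose by 0.71 (adjusted p = 8.54e-08 by limma with Benjamini-Hochberg adjustment), and Traf2 by 0.46. Casp8 rose by 0.22, next to 0.63 with adenine and 0.70 with SAM, and the relay genes that fell were Ikbkg (NEMO, -0.59), Tab1 (-0.21) and Ikbkb (-0.12). The Tab1 call was lost without CTL replicate 3 (-0.175) or DZ replicate 2 (-0.16), and that of Ikbkb without CTL replicate 2, CTL replicate 3, DZ replicate 1 or DZ replicate 3 (-0.12 to -0.11).

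Under adenine 21 of the 28 (75.0%, against 61.6% of all genes) passed, 17 higher and 4 lower, with a median of 0.16, and under SAM 20 (71.4%, against 69.3%) passed, 16 higher and 4 lower, with a median of 0.24. Fadd had 0.06 under adenine and 0.05 under SAM and Tradd 0.04 and -0.03, none past the threshold, and the direct differences of both genes between DZ and adenine (0.65 and 0.23) and between DZ and SAM (0.66 and 0.30) passed. Traf1, a target of NF-kappaB, rose in all 3 groups from a low CTL mean of 0.96 log2 CPM, by 1.84 for DZ, 2.58 for adenine and 3.31 for SAM. Tnfaip3 (A20), a brake on NF-kappaB, rose by 1.16, 1.06 and 1.12.

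Among the 12 nearest listed genes, 3 on each side of Ogdhl and of Tnfrsf25, the lowest DZ value was -0.33, in Acot7. Plekhg5 ends 519 bases before Tnfrsf25 on the same strand, and it had a log2 fold change of -0.10 with DZ, which did not pass, and of 0.69 with adenine and 0.46 with SAM, which did. Acot7, an acyl-CoA thioesterase 56.8 kb after Tnfrsf25 and also the fourth of the genes most like it, fell by 0.33 under DZ and rose by 0.19 under adenine. Its SAM value of 0.11 lost the call under 7 other settings or left-out libraries, among them without CTL replicate 2 (0.09), CTL replicate 3 (0.11), SAM replicate 1 (0.10) or SAM replicate 3 (0.10). Gpr153, the next listed gene after Acot7, rose by 1.30 under both adenine and SAM and had -0.08 under DZ, which did not pass.

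Parg, the poly(ADP-ribose) glycohydrolase gene 23.1 kb before Ogdhl, had -0.05 (DZ), -0.08 (adenine) and -0.09 (SAM), none past the threshold. On the other side Ercc6, a DNA repair gene 164 kb after Ogdhl, had 0.20 (DZ), -0.20 (adenine) and -0.36 (SAM), all past the threshold. Timm23, a mitochondrial import gene 119 kb before Ogdhl, rose by 0.49 under DZ.

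One overlap touches the reads of Tnfrsf25. Espn, on the minus strand, overlaps the last 512 bases of the Tnfrsf25 gene, and 437 of the 2309 words of 76 bases in the canonical Tnfrsf25 transcript (18.9%) also occur, on either strand, in Espn transcripts. Espn was not listed, and whether the reads were counted by strand was not stated, so that reads of the shared part cannot be assigned with certainty. Of the 4951 such words in the canonical Ogdhl transcript, 0 occur in transcripts of other genes.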

How the data were processed

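Ogdhl and Tnfrsf25, the gene lists, and the motifs were chosen with earlier results of these data known. RNA of 12 dishes, 3 in each of 4 groups, was sequenced with a stranded kit. The authors trimmed reads with Trimmomatic, aligned them with HISAT2 to GRCm39 (GENCODE vM27), quantified transcripts by StringTie, and applied edgeR to genes reaching 1 CPM in every library. For these 12591 genes the authors deposited log2 CPM, scaled to normalized library sizes, and the scaling method and versions are not given in the sources used here. Since the prior count of 2 could be removed, 100% of the values gave whole reads within 0.05 (largest distance 0.00204), with no gene under 46 reads, and these are StringTie estimates.

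The deposited values were fitted with limma 3.58.1 in R 4.3.3 (lmFit, contrasts, eBayes with a variance trend, all 12 libraries), Benjamini-Hochberg adjustment over 12591 genes and an FDR threshold of 0.01. The model was tested on simulated data. An exact permutation test of 3 against 3 dishes cannot go below p = 0.1, so none was run. Lists were counted without Ogdhl and Tnfrsf25. Named were list genes nearest in role or with the largest called changes, the 10 lowest DZ fold changes, the 5 most similar genes, and the 3 nearest genes on each side. A few genes that this rule names are left out of the text. Siae, Rdm1, and Rhbdl3 were named after their values were seen, and so were Tnfrsf1b, Tnfrsf14, Tab1, Ikbkb, Casp8, Sdhb, Mdh2, and Idh1 where the largest changes did not name them. Annotation came from GENCODE vM39 (12575 genes matched), and promoter windows from RefSeq (GRCm38.p6), located in GRCm39 by exact sequence. Python 3.11.15, numpy 2.4.6, pandas 2.3.3, and matplotlib 3.10.9 were used. The replicate numbers were not used to pair the dishes. Deviations from the group means had r between -0.142 and 0.181 for same-numbered libraries and between -0.15 and 0.117 for others. These values cannot settle whether dishes were handled in pairs. Alternatives were no variance trend, other scalings, a pseudocount of 1 CPM, a filter at a mean of 3, one model per contrast, a replicate block, voom, other thresholds, and leaving out each library.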

Additional observations from a re-analysis of the deposited data

How the results depend on the processing

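The log2 fold changes of Ogdhl and Tnfrsf25 in DZ kept their direction under the alternatives that could move them. These were other scalings, the pseudocount, voom and leaving out a library of either group. Both genes were picked for this fall, so nothing is read from that. Dropping the variance trend, one model per contrast, the replicate block, the level filter and other thresholds cannot change these values. A pseudocount of 1 CPM shrank them, to -1.392 (DZ minus CTL), -1.345 (DZ minus adenine) and -1.458 (DZ minus SAM) for Ogdhl and to -1.373, -2.066 and -1.652 for Tnfrsf25. Quantile normalization gave -1.374 and -1.498 for Ogdhl in DZ minus adenine and DZ minus SAM, and plain read totals gave 0.193 for Ogdhl in SAM minus CTL, where that scaling moved the median of all genes from -0.02 to 0.11. Without each library in turn the DZ minus CTL value lay between -1.640 and -1.515 for Ogdhl and between -1.759 and -1.421 for Tnfrsf25. In the fit with the replicate block the values were -1.560 and -1.573, the same as without it. Each group holds each replicate number once, so the block could not move them.

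Requiring also a change of 0.5 or more on the log2 scale, in either direction, left 1536, 3386, 4425, 3441 and 4340 genes called in DZ, adenine and SAM minus CTL and in DZ minus adenine and SAM. In DZ minus CTL that left 0 genes of the 2-oxoglutarate dehydrogenase, sister complex, TCA, 2-oxoglutarate supply and thiamine lists, 2 receptors and 4 adaptor and relay genes. In adenine minus CTL it left 1, 6, 2 and 6 genes of the first 4 of these lists, 3 receptors, 2 ligands and 7 adaptor and relay genes. In SAM minus CTL it left 1 TCA, 7 supply, 0 thiamine, 6 receptor and 8 adaptor and relay genes. An FDR of 0.05 gave 10 supply and 2 thiamine genes in DZ and 1 thiamine gene in adenine, as did median centring and quantile normalization for the last. A mean of at least 3 log2 CPM left 1 ligand in each of the 3 treatments and 1 thiamine gene in SAM. Leaving out each library gave 3 to 5 dehydrogenase genes and 0 to 1 thiamine genes in adenine, and 4 to 7 receptors in DZ. Lower counts under a required size or a filter follow from fewer genes being eligible, and for the other moves the cause was not tested. Over 111 genes named or listed and 5283 values, 164 lost a call, 80 gained one and 1 reversed, Tnfrsf1a in SAM minus CTL, at 0.004 under plain read totals (adjusted p = 0.9 by limma with Benjamini-Hochberg adjustment), and the cause was not tested.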
